A study of Mus musculus with 9 samples.

Results

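The cytosolic ribosomal protein genes encode the proteins that, together with ribosomal RNA, build the small (40S) and the large (60S) subunit of the ribosome outside mitochondria. They were taken as the genes whose probe sets carry a single platform symbol made of Rpl or Rps, a number and at most a letter or an l or x suffix, or the symbol Rpsa, Rplp0, Rplp1 or Rplp2. S6 kinase genes and pseudogenes were dropped, and where a gene had several probe sets the one with the highest mean over the 9 arrays stood for it. This gave 64 of the 22180 genes tested, of which 24 belong to the 40S and 40 to the 60S subunit. The naming rule uses no measured difference between groups, but the family was chosen for study with earlier results of these data known. A further 13 genes of the family, among them Rpl10, Rps2 and Rpl13a, lay only on probe sets that name several genes and were not analysed here.

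Transcripts of microdissected anterior cingulate cortex from C57BL/6J mice, an inbred strain, were read on 9 Affymetrix arrays, 3 per group, which the titles call biological replicates. Control mice were given saline into the peritoneum at ZT5, where ZT counts hours from lights on, and ketamine mice were given ketamine, an NMDA receptor blocker, at 3 mg/kg by the same route and at the same hour. Sleep-deprived mice were held awake between ZT0 and ZT12 by a slow rotating bar and have no injection in the labels. As labelled, they differ from the controls in handling as well as in sleep. Tissue of all 3 groups was taken at ZT13, that is 8 h after the injections and 1 h after the end of enforced waking. The labels used here give no age or sex. Running numbers in the sample descriptions go group by group without saying what they count, and an effect of that order and of treatment cannot be told apart.

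Ribosomal protein genes are transcribed together in nearly every cell, and their mRNAs are among the most abundant. In mammals most of these mRNAs start with a C followed by a run of pyrimidines (C or T), the 5′ terminal oligopyrimidine motif, through which the kinase complex mTORC1 and the RNA-binding protein LARP1 control their translation. As background, the fast antidepressant action of ketamine in rodents has been tied to mTORC1 signalling and to new protein synthesis in frontal cortex, and long waking to lower protein synthesis in the brain. The arrays measure mRNA level and not translation.

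RefSeq start regions (build GRCm38.p6) were found for 49 of the 64 genes, in 58 windows reaching from 250 bases before to 50 after an annotated start. The stretches below run from 10 bases before the start to 20 bases from it, 5′ to 3′ on the gene's strand, with the longest run of C and T in capitals. They are shown because a pyrimidine run at the start is the feature these mRNAs are known for, and at the annotated starts used here only some members have one. The first 5 are examples of genes at which every ketamine array lay below every saline array and whose start stretch holds a run of at least 8. Rpl32l and Rps24 also meet both conditions and are not shown.
Rpl7a (chr2:26910797-26910826, plus strand): CTCTTCTTTCTTTCTCCagcagccgagcaa
Rps12 (chr10:23787190-23787219, minus strand): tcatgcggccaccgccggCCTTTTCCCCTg
Rps9 (chr7:3704031-3704060, plus strand): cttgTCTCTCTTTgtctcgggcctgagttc
Rps26 (chr10:128626487-128626516, minus strand): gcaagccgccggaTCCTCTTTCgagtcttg
Rpl39 (chrX:37085203-37085232, minus strand): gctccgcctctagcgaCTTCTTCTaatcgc
The next also lay below saline on all ketamine arrays, but its longest run at the annotated start is shorter. The same holds for Rpl9, Rplp0, Rpl41, Rps19 and Rps27l, which are not shown.
Rps28 (chr17:33824543-33824572, minus strand): cgcgtgcggTCTCgcgagagcgaaagtgag
The last pair belongs to the 2 genes at which every ketamine array lay above every saline array, Rplp2 with a run of 10 and Rps15 with one of 3.
Rplp2 (chr7:141447641-141447670, plus strand): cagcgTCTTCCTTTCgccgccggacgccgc
Rps15 (chr10:80292421-80292450, plus strand): cagagCTCgcgataactgcgcaagcgcagc

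Of the members' windows 34.5% held a C and T run of at least 8 bases in this stretch, against 11.2% of all 32851 windows in the RefSeq table. The letters CTTTCC stood in the stretch in 12.1% of members' windows and 1.28% of all, and CTTTTC in 5.17% and 1.01%, both read on the gene's strand and both able to lie inside a longer run. CCGGAAG, the core that ETS-family factors bind, was searched over the whole window on both strands and occurred in 37.9% of members' windows against 8.86% of all. ATGGCGG, the core of YY1 sites, occurred on either strand in 15.5% against 4.05%, and the TATA box letters TATAAA on the gene's strand in 6.9% against 8.32%. A match is a description of the letters and not a binding site. The 20 members with a run of at least 8 had a median difference between ketamine and saline of -0.078 on the log2 scale, and the 29 without had -0.081. With CCGGAAG (22 members) it was -0.064 and without (27) -0.11, and with ATGGCGG (8) -0.05 and without (41) -0.081. For sleep deprivation these 6 medians were, in the same order, -0.058, -0.062, -0.042, -0.07, 0.02 and -0.07. These gaps were not tested.

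The promoter side of 2 members that differed in direction is shown from 250 bases before to 30 bases from the start, 5′ to 3′, with each CCGGAAG or ATGGCGG on either strand in capitals.
Rpl39 (chrX:37085193-37085472, minus strand): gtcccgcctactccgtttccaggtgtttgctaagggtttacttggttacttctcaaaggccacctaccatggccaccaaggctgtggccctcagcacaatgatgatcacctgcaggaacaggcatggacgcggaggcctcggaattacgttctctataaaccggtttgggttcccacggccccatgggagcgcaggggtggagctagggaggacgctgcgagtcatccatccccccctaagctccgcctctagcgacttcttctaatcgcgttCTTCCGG
Rplp2 (chr7:141447401-141447680, plus strand): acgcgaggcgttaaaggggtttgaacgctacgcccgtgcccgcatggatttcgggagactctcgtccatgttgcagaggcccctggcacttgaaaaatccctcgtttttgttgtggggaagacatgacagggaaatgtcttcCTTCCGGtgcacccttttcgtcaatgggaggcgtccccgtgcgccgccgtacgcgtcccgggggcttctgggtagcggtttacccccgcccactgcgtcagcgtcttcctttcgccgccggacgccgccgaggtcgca
Both printed stretches hold 1 match, read on the opposite strand as CTTCCGG. In Rpl39 it lies downstream of the start, at the end of the printed stretch, and in Rplp2 upstream of the start.

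Probe set intensities of the 64 members ranged from 11 for Rps15 to 5065 for Rpl21, with a median of 509 (means of 9 arrays). The 3 brightest were Rpl21, Rpl4 and Rplp1, and the 3 dimmest were Rps15, Rps16 and Rplp2. Intensity was above 250 for 37 members (57.8%), against 30.7% of all genes tested, while 12 members lay below the median probe set of the array (103). As probe sets differ in how well they bind, an intensity shows no order of abundance between genes.

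All differences below are of log2(intensity + 16) ± SE from 1 limma fit with 3 arrays per group; the offset of 16 understates the change of dim genes. The median SE was 0.11 and 3 arrays per group limit the precision. Array medians lay between 97.7 and 106.2, and arrays within a group correlated at 0.986 to 0.995. All 10 neuronal marker genes and all 5 measured markers of cortical layers were above 250, and the summed neuronal intensity lay between 29769 and 31861 on every array. By gene, 6 of the 10 neuronal means were lower after ketamine than after saline and 4 higher. Without overlap, 2 were lower (20%, all genes 7.89%). Ketamine lay below sleep deprivation without overlap for 3 (30%, all genes 5.54%). In bulk tissue fewer cells of a type and less RNA per cell cannot be told apart.

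After ketamine most members had a slightly lower mean than after saline, with differences below 0.1 in size for 32 of the 64. The mean was lower for 48 members and higher for 16, with a median of -0.068, against a median of -0.015 and 54.6% lower among all genes. After quantile normalization the member median was -0.046 (all genes 0.013) and after cyclic loess -0.043 (all genes 0.007). None passed: 0 of 64 members reached an adjusted p of 0.05 (smallest adjusted p 0.87, limma with Benjamini-Hochberg adjustment over all genes), where the background was 0% of all genes. At unadjusted p under 0.05, 7 members were lower and 1 was higher, that is 10.9% and 1.56%, against 2.35% lower and 2.21% higher in all genes. Every ketamine array lay below every saline array for 16 members (25%), where the background was 7.89%, and above for 2 (3.12%), where it was 6.48%. The 16 were 8 after quantile normalization and 9 after cyclic loess, and the 2 were 5 without saline array 1 or ketamine array 1. Shares of all genes in these settings are not given here, and the backgrounds above do not apply to them. With limma's array weights, which gave ketamine array 2 a weight of 7.92 and called 6.49% of all genes, 7 members passed the adjusted threshold.

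Direction varied with brightness. Of the 37 members above intensity 250, 33 were lower, with a median of -0.086. Among all 6817 genes above 250, 79.8% were lower with a median of -0.07, so the medians over the whole group lay close together. By array they differed. On ketamine arrays 1, 2 and 3, distances from the saline mean had a median of -0.071, -0.122 and -0.08 for bright members. For all genes above 250 these medians were 0.007, -0.066 and -0.15. Groups that did not overlap, ketamine lower, made up 32.4% of the bright members and 13.3% of bright genes. The 27 dimmer members were split 15 lower and 12 higher, with a median of -0.041, where dimmer genes at large had 0.023.

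**Figure D1:**
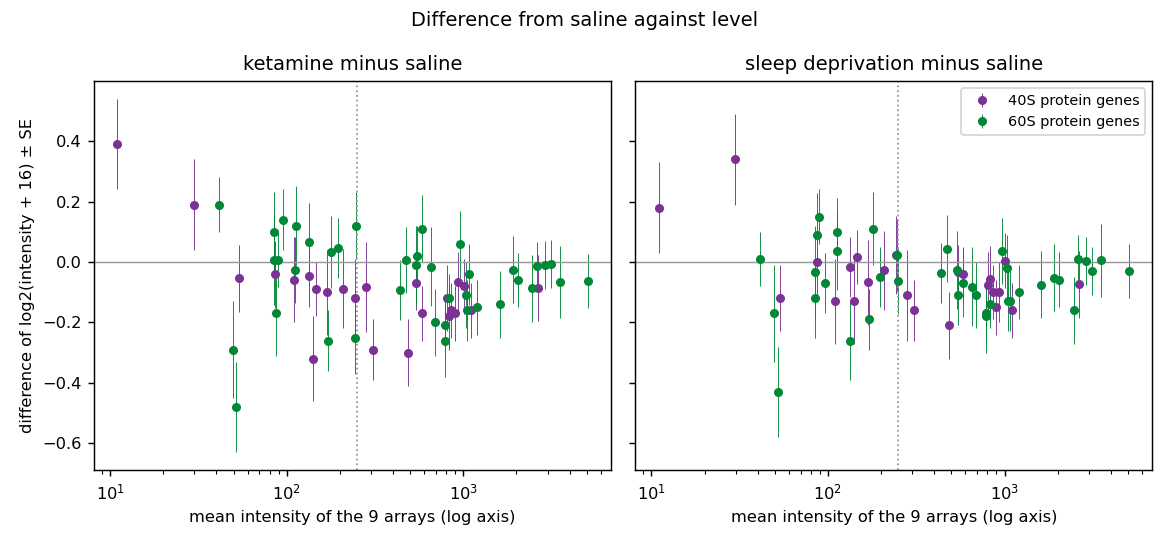
Difference from saline ± SE (log2 of intensity + 16) of each of the 64 members against its mean intensity on a log axis, for ketamine (left) and sleep deprivation (right), with 40S genes in purple, 60S genes in green and a dotted line at intensity 250. Above the line 33 of 37 members lie below 0 after ketamine and 31 of 37 after sleep deprivation, while dim members spread to both sides.

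Small subunit genes were lower after ketamine in 22 of 24 cases, with a median of -0.089. Rps28, a small protein near the mRNA exit, was among those with the smallest unadjusted p. Its intensity was 536, 561 and 527 on the saline arrays, 467, 449 and 399 after ketamine, and 443, 539 and 426 after sleep deprivation. Each ketamine value was under the lowest saline value, whereas sleep deprivation array 2 fell within the saline range. The ketamine difference was -0.30 ± 0.11 (limma, unadjusted p = 0.0138, adjusted p = 0.87) and that of sleep deprivation -0.21 ± 0.11.

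Rps19, whose human counterpart is the gene most often mutated in Diamond-Blackfan anaemia, an inherited red cell deficiency, read 352, 355 and 313 after saline, 288, 291 and 247 after ketamine and 273, 329 and 305 after sleep deprivation. Ketamine and saline did not overlap (-0.29 ± 0.10, limma unadjusted p = 0.0138, adjusted p = 0.87), while sleep deprivation and saline did. Of other genes linked to that disease, Rps24, Rps10, Rps26 and Rps7 were between -0.07 and -0.18 after ketamine, and Rps24 and Rps26 did not overlap with saline. Rpl5 and Rpl11, also linked to it, were not lower, at 0.047 ± 0.10 and 0.0068 ± 0.09. After sleep deprivation the 5 small subunit genes were at -0.16 to -0.03, Rpl5 at -0.049 ± 0.10 and Rpl11 at 0.15 ± 0.09.

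Rps13 read 153, 171 and 147 after saline and 151, 115 and 105 after ketamine, so that ketamine array 1 lay inside the saline range (-0.32 ± 0.14, limma unadjusted p = 0.0424, adjusted p = 0.87). Rps12 was at -0.17 ± 0.09 and Rps9 at -0.17 ± 0.09, both without overlap. Rps6, the substrate of the S6 kinases whose phosphorylation is used as a readout of mTORC1, read 3056, 2569.7 and 2604 after saline, 2599, 2492 and 2635 after ketamine and 2278, 2852 and 2697 after sleep deprivation. Its groups overlapped in all 3 comparisons, with -0.086 ± 0.11 after ketamine and -0.074 ± 0.11 after sleep deprivation.

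At the mRNA entry and decoding sites, Rps3 was at -0.12 ± 0.11 and Rps23 at -0.10 ± 0.14 after ketamine. Rps15 went the other way at 5.76, 7.2 and 9.19 after saline against 12.5, 19.1 and 12.7 after ketamine (0.39 ± 0.15, limma unadjusted p = 0.0196, adjusted p = 0.87). This probe set is the dimmest of all members, far below the array medians, and its difference was 0.91 with an offset of 1 and 0.14 with an offset of 64. Rpsa, also known as the laminin receptor precursor, was at -0.081 ± 0.09, and Rps25, which acts in translation from internal entry sites, at -0.083 ± 0.15. Rps27l, a paralog induced by p53, read 147, 155 and 147 after saline and 147, 143 and 130.3 after ketamine, a difference of -0.090 ± 0.09.

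**Figure D2:**
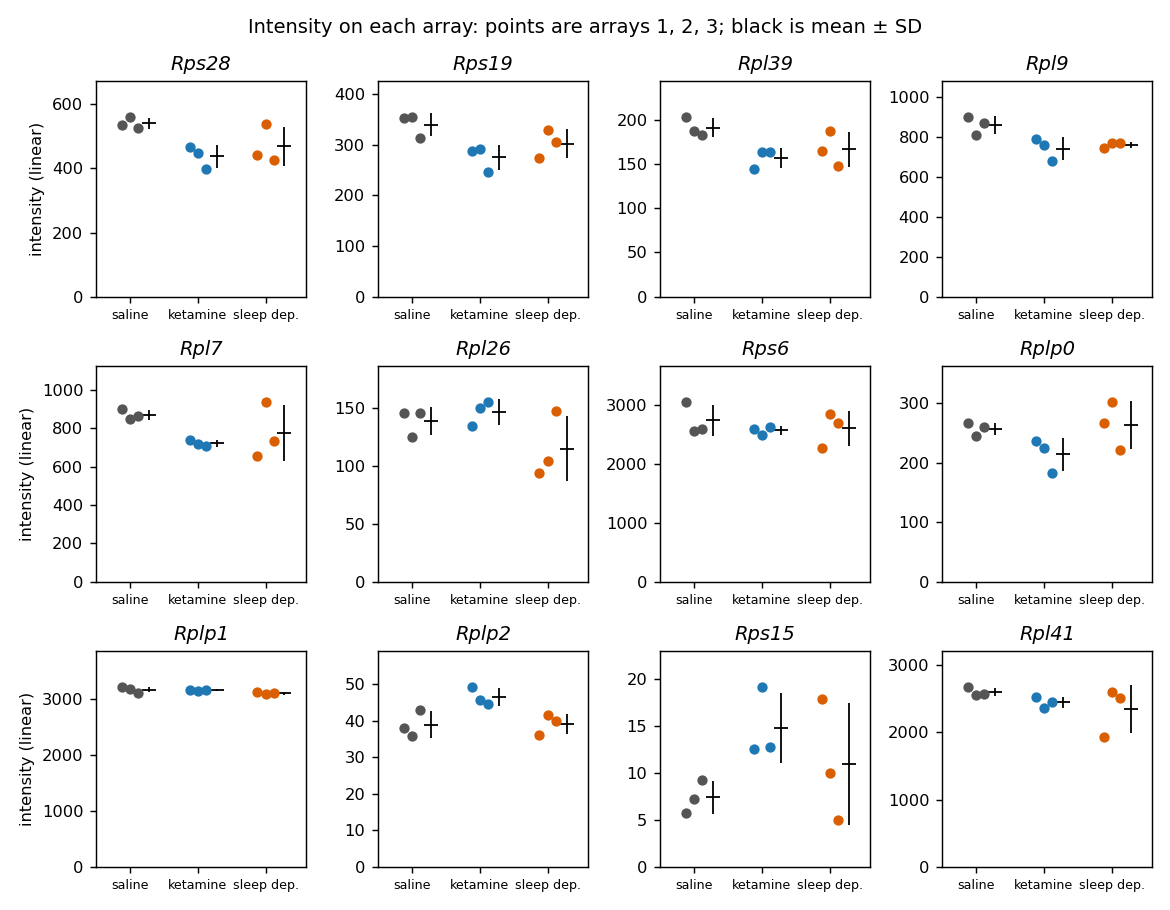
Intensity (linear axis from 0) on each array for 12 members, with one point per array, a black bar for the group mean ± SD, and "sleep dep." for sleep deprivation. Rps28, Rps19, Rpl39, Rpl9, Rpl7, Rplp0 and Rpl41 have all 3 ketamine points under the saline points. Rplp2 and Rps15 have them above, and Rplp1 is nearly level at 3074 to 3202.

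Large subunit genes were split more evenly after ketamine, with 26 of 40 lower and a median of -0.026. The gap between the subunits was not tested. Rpl32l, named as a paralog of Rpl32, had the most negative difference, on a dim probe set (mean intensity 51.9) under the array medians. It read 60.8, 68.2 and 69.5 after saline, 42.4, 51.2 and 36.1 after ketamine and 30.6, 61 and 47.5 after sleep deprivation. No ketamine array reached the saline range, and 1 sleep deprivation array did (-0.48 ± 0.15, limma unadjusted p = 0.00785, adjusted p = 0.87, for ketamine). Rpl32 itself was at -0.011 ± 0.13.

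Rpl39 lines the exit tunnel, through which the growing chain leaves the ribosome. It read 203, 187 and 183 after saline, 144, 163 and 163 after ketamine and 164, 187 and 148 after sleep deprivation. Ketamine was lower on all arrays (-0.26 ± 0.10, limma unadjusted p = 0.0216, adjusted p = 0.87). The other tunnel proteins Rpl4, Rpl17, Rpl23a and Rpl35 were at -0.067 ± 0.12, -0.17 ± 0.14, -0.12 ± 0.08 and -0.041 ± 0.10, all lower, and of these Rpl23a did not overlap with saline. Rpl39 and Rps4x are the measured X-linked members, and Rps4x was at -0.16 ± 0.09.

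Rpl7 read 899.7, 847 and 862 after saline, 741, 718 and 707 after ketamine and 654, 937 and 736 after sleep deprivation. The ketamine arrays were close together and under the saline arrays (-0.26 ± 0.12, limma unadjusted p = 0.0409, adjusted p = 0.87), while the sleep deprivation arrays spread over both. Rpl9 read 901, 809 and 871 after saline, 788, 759 and 679 after ketamine and 744, 770.1 and 771 after sleep deprivation. Both treatments lay under saline without overlap, at -0.21 ± 0.09 (limma unadjusted p = 0.039, adjusted p = 0.87) and -0.17 ± 0.09.

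The stalk proteins, which recruit the elongation factors, did not share a direction. Rplp0 read 266, 245 and 259.6 after saline, 236, 224 and 183 after ketamine and 267, 302 and 221 after sleep deprivation, with ketamine lower on all arrays (-0.25 ± 0.12). Rplp1 was nearly level, at -0.0061 ± 0.08. Rplp2 read 38.1, 35.7 and 42.9 after saline and 49.2, 45.7 and 44.5 after ketamine, higher on all arrays (0.19 ± 0.09), on a probe set under the array median.

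Rpl5 and Rpl11, which carry 5S ribosomal RNA and bind the p53 regulator Mdm2 when assembly fails, are the pair given above beside Rps19, and both overlapped with saline after ketamine. Of the proteins near the peptidyl transferase centre, where peptide bonds form, Rpl3 was at 0.11 ± 0.11 and Rpl8 at -0.20 ± 0.11. Rpl38, which is needed for the translation of Hox mRNAs in the embryo, was at -0.14 ± 0.11. The paralogs with restricted expression were Rpl3l at 0.14 ± 0.10, Rpl10l at 0.10 ± 0.13, Rpl39l at 0.12 ± 0.11 and Rps4l at -0.041 ± 0.11. Among the brightest members Rpl21 was at -0.063 ± 0.09. None of these groups was free of overlap with saline.

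**Figure D3:**
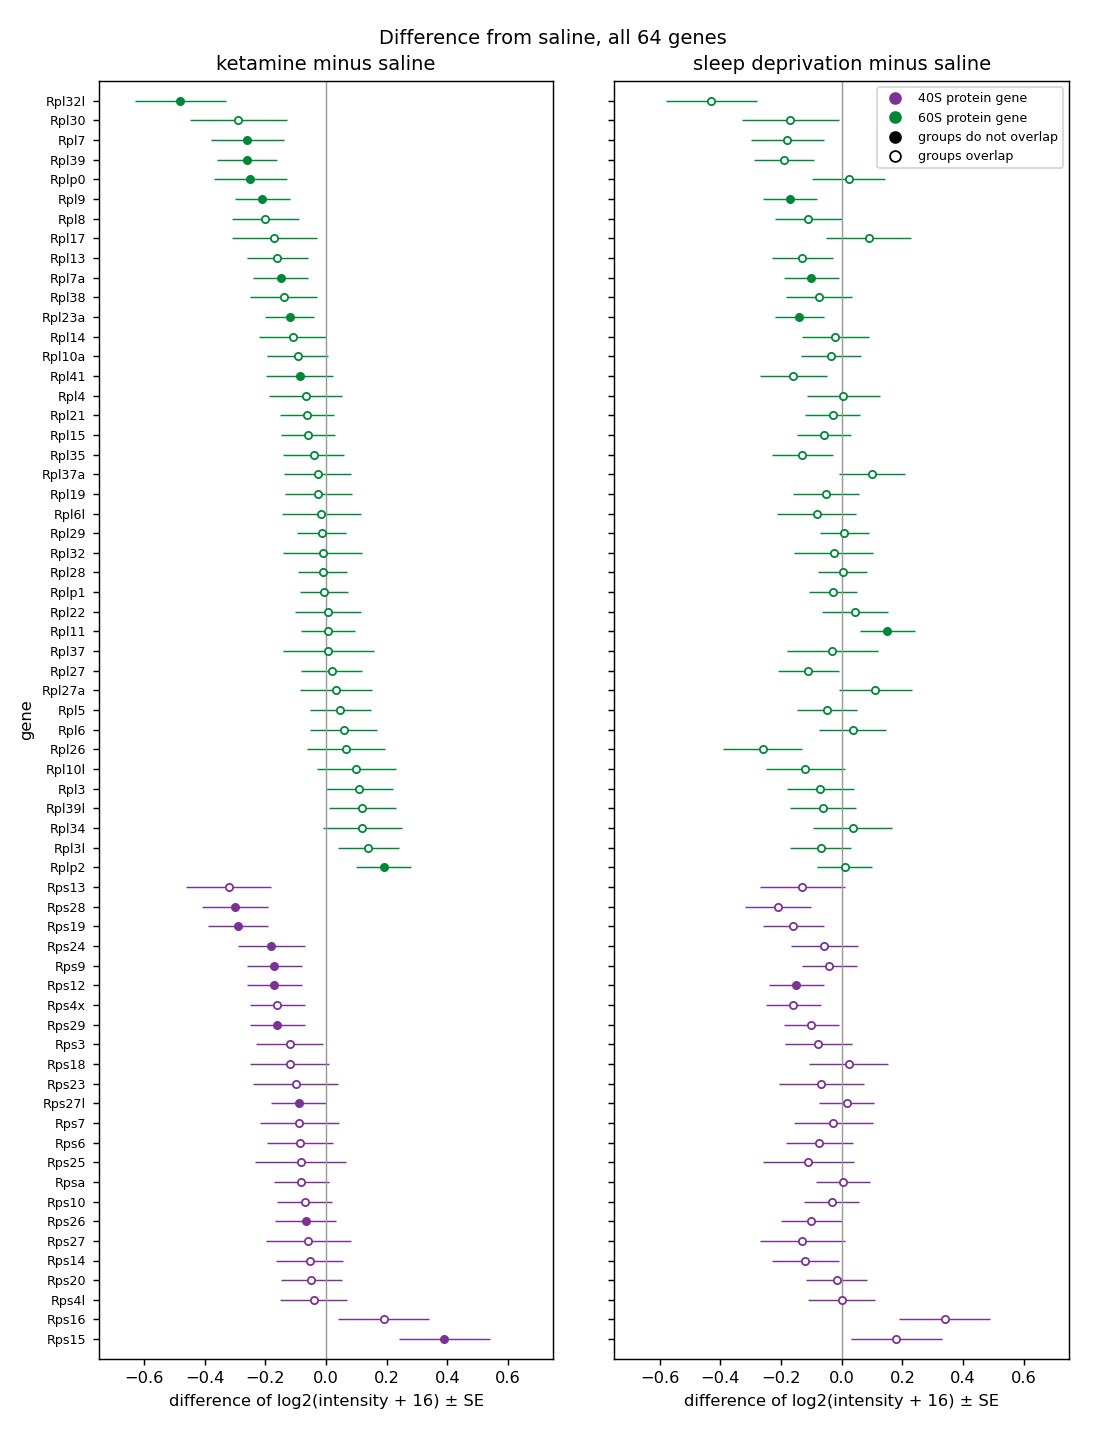
Difference from saline ± SE (log2 of intensity + 16) for each of the 64 members after ketamine (left) and sleep deprivation (right), 60S genes (green) above 40S genes (purple), each ordered by the ketamine value, and filled where the groups do not overlap. Most points sit left of 0, ranging from -0.48 to 0.39 after ketamine and from -0.43 to 0.34 after sleep deprivation, and the 2 panels share the saline arrays.

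Sleep deprivation gave a median of -0.06 with 46 members lower and 18 higher, against -0.009 and 53.4% lower among all genes. By limma, 0 of 64 members passed the adjusted threshold (smallest adjusted p 1.0, background 0%). At unadjusted p under 0.05, 1 member was lower, Rpl32l at -0.43 ± 0.15, and 1 was higher, Rps16 at 0.34 ± 0.15, which is 1.56% in each direction against 1.72% lower and 1.8% higher among all genes. Groups did not overlap for 4 lower members (6.25%, background 3.54%) and 1 higher member (1.56%, background 3.57%). With array weights 0 members passed. The counts at unadjusted p were thus near the background.

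The 4 lower members were Rpl9, Rps12, Rpl7a and Rpl23a, and the higher one was Rpl11. Rps12 read 970.2, 999 and 932 after saline, 863, 925 and 829 after sleep deprivation and 818, 886 and 871 after ketamine. Both treatments lay under saline on every array, at -0.15 ± 0.09 and -0.17 ± 0.09. Rpl23a was at -0.14 ± 0.08 and Rpl7a at -0.10 ± 0.09. Rpl11 read 77.3, 89.8 and 90.2 after saline and 99.2, 97.8 and 92.4 after sleep deprivation (0.15 ± 0.09), on a dim probe set. Rps16 read 23.9, 25.8 and 21.9 after saline and 47.6, 35.9 and 23.2 after sleep deprivation, with overlap, also far below the array medians.

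In sleep deprivation 40S genes were lower in 18 of 24 cases (median -0.07) and 60S genes in 28 of 40 (median -0.055). Of the members above intensity 250, 31 of 37 were lower, with a median of -0.075 while all genes above 250 were split evenly, with 50.1% lower. Bright members thus lay lower than bright genes at large here, as a description of these arrays.

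That median rested on single arrays. Taking each member's distance from its saline mean, the median over members was -0.165 on sleep deprivation array 1, 0.066 on array 2 and -0.071 on array 3, with 54, 19 and 44 of 64 members below the saline mean. Saline array 1 stood at 0.068, and saline arrays 2 and 3 at -0.027 and -0.037. The ketamine arrays were closer together, at -0.047, -0.103 and -0.077, all below the 3 saline arrays. Sleep deprivation array 1 was the lowest of all 9 arrays for 26 members, and saline array 1 the highest for 25.

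Without sleep deprivation array 1 the median of that comparison was -0.001, without array 2 it was -0.106, and without saline array 1 it was -0.012. The 4 lower members without overlap became 21 without sleep deprivation array 2, 10 without saline array 3 and 8 without sleep deprivation array 3, where fewer arrays make overlap rarer by construction. For ketamine the median was -0.029 without saline array 1 and -0.04 without ketamine array 2. There the 7 lower members at unadjusted p became 3 and 4, and without ketamine array 3 they became 2. Shares of all genes with an array left out are not given here, so the counts in this paragraph have no background beside them. Members varied more among the sleep-deprived mice, with a median SD of 0.161 on the log2 scale, than after saline (0.097) or ketamine (0.096). For all genes these medians were 0.151, 0.086 and 0.114.

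**Figure D4:**
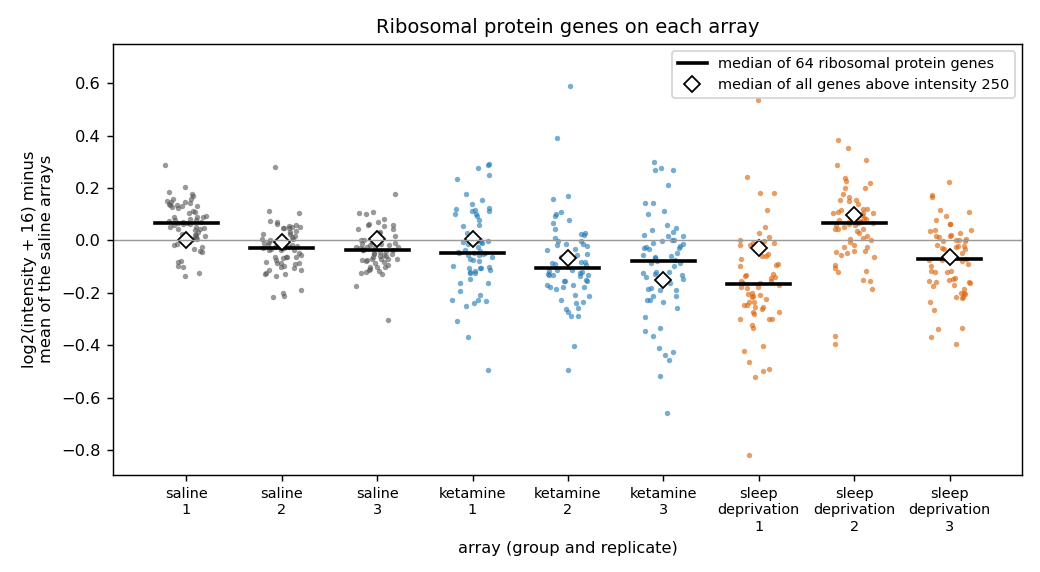
Distance of each of the 64 members from its saline mean (log2 of intensity + 16) on each of the 9 arrays, with points for members (coloured by group), bars for their median and diamonds for the median of all genes above intensity 250. The member median is below 0 on all 3 ketamine arrays and swings from -0.165 to 0.066 among the sleep deprivation arrays.

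Ketamine and sleep deprivation were also compared with each other. Members were lower after ketamine in 40 cases and higher in 24, with a median of -0.035 (all genes -0.012), a direction that turned to 0.022 after quantile normalization, 0.013 after cyclic loess and 0.023 without sleep deprivation array 2. By limma 0 members passed (smallest adjusted p 0.487, background 0%), also with array weights. At unadjusted p under 0.05, Rplp0 was lower (-0.28 ± 0.12) and Rpl26 higher (0.33 ± 0.13), or 1.56% each against 4.38% and 5.1% of all genes. Rps9 was lower without overlap (1.56%, background 5.54%), and Rpl3, Rplp1 and Rplp2 were higher (4.69%, background 4.53%). These shares were at or under the background. Without sleep deprivation array 2, 21 members were lower in place of 40. The 1 lower member without overlap became 11 without sleep deprivation array 1, 9 without array 3 and 6 without ketamine array 1. Fewer arrays make overlap rarer by construction, and shares of all genes in these settings are not given here.

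Rpl26, whose protein also binds p53 mRNA, read 134, 150.0 and 155 after ketamine, 93.6, 104 and 147 after sleep deprivation and 146, 125 and 146 after saline. Sleep deprivation arrays 1 and 2 were the low ones and array 3 lay among the others. Ketamine stood 0.066 ± 0.13 from saline, and sleep deprivation -0.26 ± 0.13. The comparisons with saline share their control arrays, so the likeness of their values is no separate evidence.

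Of the 64 members, 24 had several probe sets, and these did not always move alike. After ketamine all probe sets of a gene were lower for 11 genes and of mixed sign for 13. The brightest Rps28 probe set (intensity 483) was at -0.30 and the dimmer one (61.8) at 0.07, while for Rpl7 the values were -0.26 (789) and 0.09 (57.5). Rps24 had -0.18, -0.22 and 0.22 at intensities of 825, 516 and 161, and Rpl41 had 4 probe sets between -0.15 and -0.06 and another, of intensity 164, at 0.40. Rps19 had -0.29 (306) and -0.0 (122), Rpl9 -0.21 (788) and -0.03 (52.6), and Rplp0 -0.25 (245) and 0.01 (100.0). Rps9 was lower on both (-0.17 and -0.19), as was Rpl13 (-0.16 and -0.32). Some probe sets hold the same values on all arrays (6 of Rps12, 2 of Rps19 and 2 of Rpl23a) and count as 1 measurement each. Ribosomal protein genes have many processed pseudogenes of near-identical sequence, and whether the probes share signal with such copies was not tested. With the mean of all probe sets of a gene in place of the brightest, Rps28 was at -0.12, Rpl7 at -0.09 and Rpl3 at -0.03 after ketamine.

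**Figure D5:**
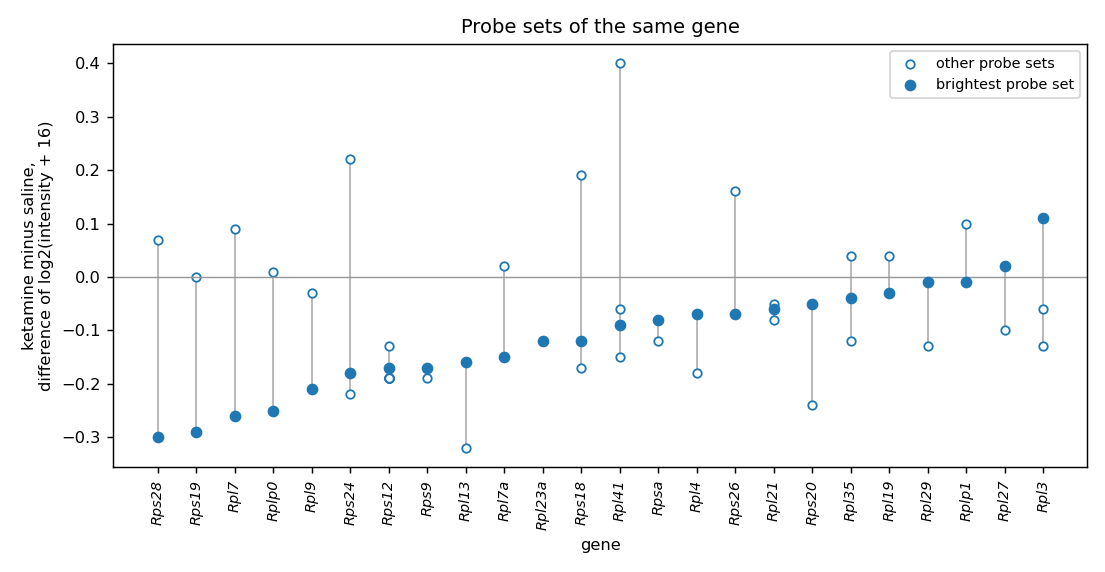
Difference between ketamine and saline (log2 of intensity + 16) for each probe set of the 24 members that have several, the brightest one filled and the others open. The filled points reach from -0.30 for Rps28 to 0.11 for Rpl3, and open points of Rpl41 and Rps24 reach 0.40 and 0.22.

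Genes that make or use ribosomes were taken from lists of textbook genes. Of 66 measured ribosome biogenesis genes 60 were lower after ketamine (90.9%, median -0.095), where the share was 54.6% of all genes and 79.8% of those above intensity 250. By limma 3 of them (4.55%) were lower at unadjusted p under 0.05, against 2.35% of all genes, and 0 at an adjusted p. Npm1, the nucleolar chaperone nucleophosmin, was at -0.27 ± 0.10, the kinase Riok1 at -0.28 ± 0.11 and the nucleolar GTPase Gnl3 at -0.28 ± 0.12, each without overlap. Nucleolin, Ncl, was at -0.19 ± 0.10, also without overlap. Of the 66, 13 lay lower without overlap (19.7%), against 7.89% of all genes and 13.3% of those above intensity 250. After sleep deprivation 27 of the 66 were lower, with a median of 0.015.

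Of 35 translation factors 31 (88.6%) were lower after ketamine (median -0.079) and 17 after sleep deprivation (0.005). The helicase gene Eif4a1 was at -0.078 ± 0.14 and 0.27 ± 0.14. Eif3e was at -0.12 ± 0.11 and -0.18 ± 0.11, without overlap in both comparisons. After ketamine 8 factors were lower without overlap (22.9%, all genes 7.89%). After sleep deprivation 2 were lower (5.71%, all genes 3.54%) and 1 higher (2.86%, all genes 3.57%). Of 11 genes of the S6 kinases and mTORC1, 7 were lower after ketamine (-0.019) and 1 after sleep deprivation (0.094). Rps6ka3, a kinase of the RSK family, was at -0.26 ± 0.11 after ketamine, Rheb, the activator of mTORC1, at -0.13 ± 0.09, and Larp1 at -0.0092 ± 0.09. In the sleep deprivation comparison Larp1 was at 0.12 ± 0.09 and Tsc1, an mTORC1 inhibitor, at 0.14 ± 0.10. Fau, which encodes the 40S protein eS30 fused to a ubiquitin-like protein, was at -0.13 ± 0.12 after ketamine and -0.10 ± 0.12 after sleep deprivation. Rps3a1, a ribosomal protein gene whose symbol falls outside the pattern, was at -0.13 ± 0.09, and the paralogs Rpl7l1 and Rpl22l1 were at -0.24 ± 0.11 and 0.15 ± 0.12.

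Mitochondrial ribosomal protein genes were lower after ketamine in 68 of 71 cases (median -0.10) and proteasome subunit genes in 33 of 39 (-0.072). After sleep deprivation the counts were 33 of 71 (0.003) and 30 of 39 (-0.032). The lower values after ketamine were therefore also present in these lists, and the differences between lists were not tested.

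Markers of other cells also differed between groups on average, though many of their sums overlapped. Endothelial markers summed to 2084 to 2297 after saline, 1894 to 2297 after ketamine and 2344 to 2454 after sleep deprivation, and all 8 were higher on average after sleep deprivation (median 0.129), while 7 of 8 were lower after ketamine (-0.118). Oligodendrocyte markers summed to 5055 to 6189, 4459 to 7862 and 4489 to 5813 in the same order, with all 9 lower on average after sleep deprivation (median -0.166) and 3 of 9 after ketamine (0.061). Astrocyte markers were lower in 8 of 8 cases after ketamine (median -0.10) and in 5 of 8 after sleep deprivation (-0.049), and meningeal markers in 6 of 7 (-0.163) and 6 of 7 (-0.073). These ketamine medians for endothelial, astrocyte and meningeal markers were larger in size than the members' -0.068. Meningeal sums were 1277 to 1433, 1200.4 to 1265 and 1259 to 1312, and choroid plexus and ependyma sums 915 to 9741, 1014 to 1314 and 749.5 to 1331, where Ttr alone read 1624, 8428 and 109.5 on the saline arrays. Astrocyte sums (7796 to 8377, 7166 to 8135, 7504 to 8543), microglial sums (2140.3 to 2358, 2123 to 2304, 2308 to 2439) and those of 3 striatal markers (497 to 512, 472 to 496, 496 to 587) overlapped with saline in both treated groups, except the striatal sums after ketamine. No measured marker was at 0, and blood markers were not analysed here. The part of these cells in the members' values was not tested.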

How the data were processed

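Total RNA was hybridised to 9 arrays. The authors deposited linear intensity values, which they made with PLIER 2.0 and Affymetrix Expression Console 1.1.1, per the submitters' processing notes. How background was corrected and arrays were normalized is not given in the sources used. The log2 values were computed here from the authors' intensities as log2(intensity + 16). Of 41345 probe sets, 23521 had 1 symbol, and the brightest per gene gave 22180 genes. Symbols were updated to RefSeq names through gene identifiers.

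Differences came from limma 3.58.1 in R 4.3.3 with all 9 arrays in 1 fit (6 residual degrees of freedom) and Benjamini-Hochberg adjustment over 22180 genes at 0.05. The fit was tested on simulated data. Medians over lists are descriptions without a test. Members, lists and the rule for named genes were chosen with earlier results of these data known. That rule took members past the threshold, the 6 smallest unadjusted p per direction and comparison, members of role lists, and the 3 brightest and 3 dimmest, plus up to 4 genes per pathway list. Alternatives covered the offset (1 and 64), normalization, dim genes, probe set choice, limma-trend, array weights, 2-group fits, a replicate block and each array left out. Correlations of deviations between same-numbered arrays ran from -0.201 to 0.444 and did not exceed 0.1 in every pair, so numbers were not taken as pairs.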

Additional observations from a re-analysis of the deposited data

How the results depend on the processing

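The count of members past the adjusted threshold was 0 in all 3 comparisons under every alternative but one. With limma's array weights it was 7 for ketamine against saline. Leaving out each array in turn gave 0 throughout, and medians from -0.101 to -0.029 for ketamine against saline, from -0.106 to -0.001 for sleep deprivation against saline and from -0.056 to 0.023 for ketamine against sleep deprivation. The number of lower members at unadjusted p after ketamine was 4 with cyclic loess, 4 with the mean of a gene's probe sets and 19 with array weights, and the number without overlap was 8 with quantile normalization and 9 with cyclic loess. Each cause was not tested. With the replicate block 0 members passed. The medians were -0.068, -0.06 and -0.035, which the block cannot change because each group holds every replicate number once. The block changed no call at the adjusted threshold, and same-numbered arrays deviated together in some pairs and not in others. Of 2511 values of 41 named members over 21 settings, 2485 stayed within 1 SD of the reported value on its side of the threshold. Another 20 moved further and 6 passed the threshold, all with array weights. The sign differed in 120 of the 2511, and in none of them for a member at unadjusted p under 0.05. Many of these settings cannot change a gene's difference. They are limma-trend, the replicate block, fits on only the groups compared and fits without dim genes. Leaving out an array also cannot change a comparison that lacks its group. Such values can neither move nor change sign, so the 2485 and the 120 do not measure how stable the differences are. A fit on genes above intensity 250 was chosen after seeing the data. It cannot change a gene's difference, so its 33 of 37 members lower after ketamine repeat the count given above. With 3 arrays per group and a median SE of 0.11, differences of the size seen here for most members lie within the error. Signal over background was not used here, so dim members such as Rps15 and Rps16 have no stated floor.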
